A study of Mus musculus with 2756 samples.

Results

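Inhibitory interneurons and excitatory neurons of the embryonic mouse neocortex were compared 96 h after labelling, day by day. The cells had been marked with FlashTag, a dye taken up by cells that divide at the ventricular surface, injected at embryonic day 12, 13, 14 or 15 (E12 to E15). The putative somatosensory cortex was dissected, the brightest labelled cells were sorted, and their RNA was sequenced after capture on a C1 chip with SMART-Seq v4 chemistry. Of the 2756 cells in the table, 1002 were collected at 96 h. Of these, 887 are described here. They carried cluster names of the authors that begin with IN (interneurons) or with N4d (excitatory neurons of the 4-day stage, 693 of the 887).

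There were 85 IN cells among 229 of both classes at E12, 44 among 252 at E13 and 30 among 241 at E14, and 35 IN cells beside 130 N4d cells at E15. Their reads were summed per class and day into 8 sums, of 23.6, 10.6, 7.79 and 9.40 M reads in IN and 56.1, 80.0, 63.4 and 40.4 M reads in N4d from E12 to E15. The 4 IN sums were set against the 4 N4d sums with injection day as a block, so that cells were never counted as replicates. No genotype, strain or treatment other than the dye was given in the labels, and all groups share the injection. No label names an animal or a litter, so the p-values rest on the spread between the 8 sums, not between animals, and part of it may be technical. For each gene that spread was moderated with that of the other tested genes. Their weight was 6.91 degrees of freedom, against 3 from the gene itself. Levels are given in CPM, the reads of a gene per 1000000 reads of its sum, and are compared within a gene only, since they are not scaled to gene length. Differences are log2 fold changes of IN over N4d ± SE, and a gene was called at a Benjamini-Hochberg adjusted p under 0.05 in edgeR's quasi-likelihood test. The SE of a difference or slope was computed back from that test, as its absolute value over the square root of the F statistic.

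The neurons differ in origin and transmitter. Excitatory cortical neurons descend from the apical progenitors of the cortical wall, move outward along radial glia, release glutamate and send out long axons. Cortical interneurons are known to be born in the ganglionic eminences of the ventral forebrain, to migrate tangentially into the cortex and to release GABA. Those of the medial eminence are known for the transcription factor Lhx6, and those of the caudal eminence for Prox1, Nr2f2 and Sp8.

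The class names were checked against markers of both kinds in single cells. The summed level of Gad1, Gad2, Dlx1, Dlx2, Dlx5 and Lhx6 had a median of 1667 CPM over IN cells, against 8.24 CPM over N4d cells. The summed level of Neurod2 and Neurod6, transcription factors of excitatory neurons, had a median of 247 CPM over IN cells, against 1878 CPM over N4d cells. The 64 astrocyte cells (Astro) of the same time, which should lack both programmes, had medians of 5.63 and 168.4 CPM. The interneuron genes thus stood near the astrocyte level in most N4d cells. The Neurod pair had a higher median in IN cells than in astrocytes over all days together, but not on each day. From E12 to E15 its medians were 242, 370, 305 and 188.4 CPM in IN cells. In astrocytes they were 282 (1 cell), 304 (2 cells), 349 (7 cells) and 126.8 CPM (54 cells). Of the IN cells, 57 (29.4%) held more Neurod2 and Neurod6 than the 10th percentile of N4d cells (648 CPM), and 90 N4d cells (12.99%) held more of the interneuron genes than the 10th percentile of IN cells (339 CPM). Results were also computed without these cells, a choice that itself fixes the direction of the marker genes used. The labels do not say how the clusters were made. If they were made from these counts, genes that define them had to differ, so the values of such markers describe the classes and their p-values are not independent evidence.

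**Figure D1:**
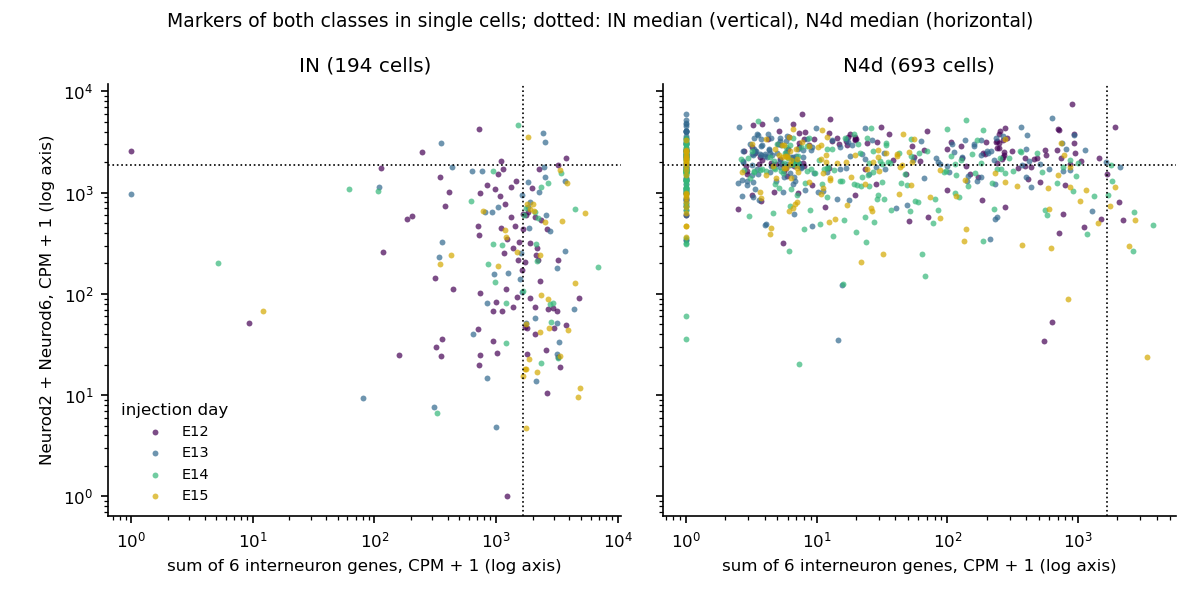
Each point is 1 cell, coloured by injection day, with the summed CPM of 6 interneuron genes on the x axis and of Neurod2 and Neurod6 on the y axis (log axes, CPM + 1), for IN cells on the left and 693 N4d cells on the right. Dotted lines mark the IN median of the 6 genes (1667 CPM) and the N4d median of the Neurod pair (1878 CPM), and cells of either class reach into the range of the other.

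The median number of detected genes was smaller in IN than in N4d cells on each day. With each cell thinned to 50000 reads, the median number of detected genes was 2367, 2300, 2512 and 2449 in IN from E12 to E15, against 2745, 2831, 2934 and 2940 in N4d. The difference averaged -455 genes ± 68.7 (SD, n = 4 days) and was negative on every day, with a two-sided exact permutation p of 0.125, the smallest that 4 pairs allow. Median reads per cell were 275467, 261561, 275284 and 279544 in IN and 385490, 402028, 268578 and 307548 in N4d. The mitochondrial share of reads that the labels give had medians of 4.6 to 5.45% in IN and 4.25 to 6.5% in N4d.

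Of 9362 genes tested, 210 differed between the classes, which is 2.24% of those tested. Genes higher in IN were 1.20% of those tested, and 98 genes (1.05%) were lower. Counts of called members in each gene list below are to be read beside these shares. All 210 had the same sign on each of the 4 days. A test paired over the same days favours such genes, so this adds no support. The 4 IN values did not overlap the 4 N4d values for 9.19% of all tested genes. Of the calls 53.3% were higher in IN, a share that was 43.2% in DESeq2, 41.2% in limma with cells at equal weight, 42.9% in limma with the IN clusters IN.1 and IN.2 at equal weight and 40.2% with a filter of 50 CPM in 4 sums. The median log2 difference over all tested genes was -0.10, and 1116 genes had an unadjusted p under 0.05. Data were simulated at the same depth, with the spread that the trend over expression level gives and without the added spread of single genes. There the fit recovered 44.8% of 67 genes changed by a log2 of 2 and 11.9% of 67 genes changed by 1. Recovery in the real data may differ from these shares, and a gene that was not called may still differ by such amounts. Without 1 of the 4 days the counts fell to between 56 and 85 genes higher and between 43 and 83 lower, lowest without E12.

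**Figure D2:**
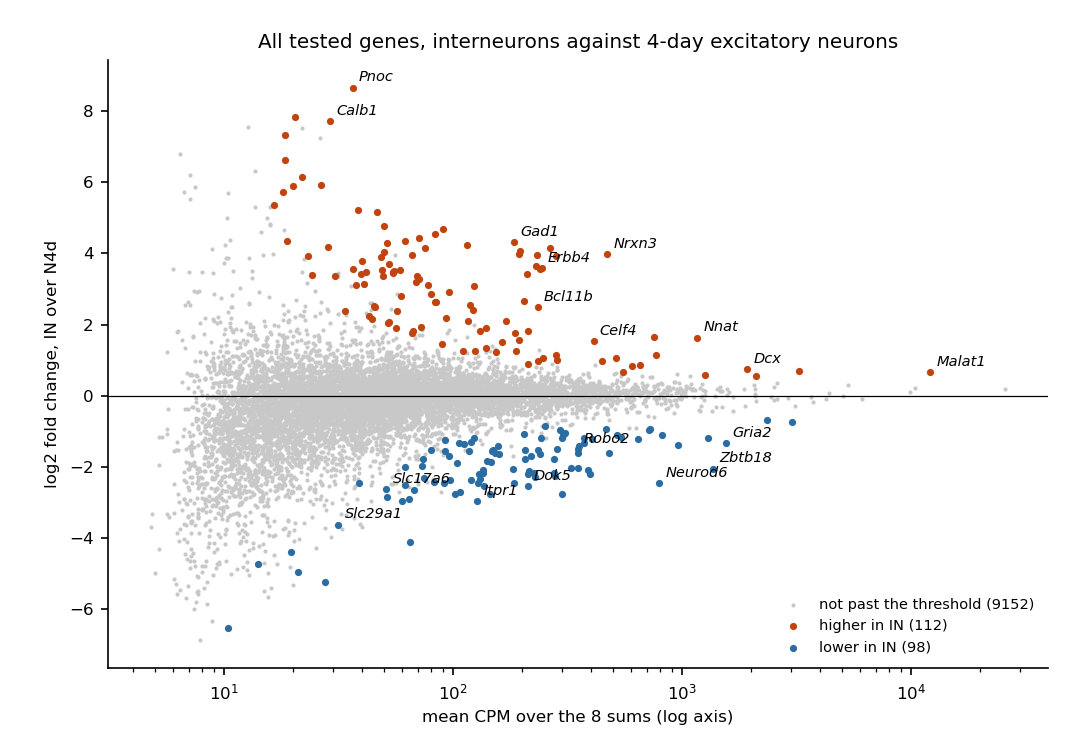
Each point is a tested gene, with its mean CPM over the 8 sums on the x axis (log axis) and its log2 fold change of IN over N4d on the y axis. The genes called higher in IN (orange) reach a log2 of 8.67 for Pnoc, and the called genes of high level such as Malat1 lie closer to 0.

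Both enzymes that make GABA were higher in IN. If the clusters were made from these counts this had to be so, and it is then no independent check of the class label. Of the 8 listed genes 7 were tested, 4 were higher and none lower, with a median log2 of 3.37. Gad1 (chr2:70553072-70602014, GRCm38), which makes GABA from glutamate, stood at 240.2, 276, 429.6 and 451 CPM in IN, against 16.9, 9.80, 21.6 and 26.1 CPM in N4d. The classes did not overlap, and the log2 difference was 4.31 ± 0.25 (adjusted p 4.71e-05). Gad2 (chr2:22622205-22693874), the other glutamate decarboxylase, stood at 389.6, 359, 329 and 663 CPM in IN, against 33.2, 13.5, 36.5 and 34.4 CPM in N4d. E15 was highest in IN and E13 lowest in N4d, again with no overlap, and the difference was 3.97 ± 0.29 (adjusted p 1.39e-04). Abat, which breaks GABA down, averaged 66.5 ± 27.6 CPM in IN and 6.65 ± 3.97 CPM in N4d (SD, n = 4 days; 3.57 ± 0.58), and its call was lost without E12, E13 or E14 and without the cells holding markers of both classes (adjusted p 0.0944). The transporters Slc38a1 (-0.13 ± 0.34) and Slc6a11 (-1.52 ± 1.18) and the enzyme Aldh5a1 (-0.52 ± 0.90) did not pass. Slc32a1, which loads GABA into vesicles, missed the filter on low values, with 38.01, 2.74, 27.2 and 0.106 CPM in IN and 2.39, 1.12, 1.66 and 0 CPM in N4d. In IN it was thus higher in E12 and E14 and near 0 in E13 and E15.

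Promoter windows of 300 bases (250 before to 50 after a gene's start, RefSeq, GRCm38.p6) were searched on both strands for TAATTA, a core motif bound by homeodomain proteins such as the Dlx factors, and for CAGATG, a form of the E-box CANNTG bound by Neurod factors. RefSeq windows were matched by symbol for 77 of the genes higher in IN and 71 of the 98 lower genes. All listed windows of 4 genes on which the comparison turns are shown 5′ to 3′ on the gene's strand, in lower case with either motif in capitals on whichever strand it lies: a GABA enzyme and the Dlx6 antisense RNA, both higher in IN, then an excitatory factor and a glutamate transporter, both lower. Dlx6os1 and Slc17a6 each have 2 listed starts. The Slc17a6 window next to the start of the gene as annotated holds neither motif, and the one further in holds both.
Gad2 (chr2:22622077-22622376, plus strand): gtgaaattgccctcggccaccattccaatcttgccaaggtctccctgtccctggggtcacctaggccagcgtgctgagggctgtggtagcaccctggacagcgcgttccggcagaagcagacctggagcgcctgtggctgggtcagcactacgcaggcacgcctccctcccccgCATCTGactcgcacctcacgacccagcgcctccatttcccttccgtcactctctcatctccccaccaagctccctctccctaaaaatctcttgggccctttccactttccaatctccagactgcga
Dlx6os1 (chr6:6869484-6869783, minus strand): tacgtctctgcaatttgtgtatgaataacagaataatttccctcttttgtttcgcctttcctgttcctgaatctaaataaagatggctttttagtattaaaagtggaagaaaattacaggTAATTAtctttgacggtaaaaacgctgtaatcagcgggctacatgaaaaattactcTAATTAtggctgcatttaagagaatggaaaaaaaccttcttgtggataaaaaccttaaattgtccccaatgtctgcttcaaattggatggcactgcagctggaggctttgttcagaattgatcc
Dlx6os1 (chr6:6861634-6861933, minus strand): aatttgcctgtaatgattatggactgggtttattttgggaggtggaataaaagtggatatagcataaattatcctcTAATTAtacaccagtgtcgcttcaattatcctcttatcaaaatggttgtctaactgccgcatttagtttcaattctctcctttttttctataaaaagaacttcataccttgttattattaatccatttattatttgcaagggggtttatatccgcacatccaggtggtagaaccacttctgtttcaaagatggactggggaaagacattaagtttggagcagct
Neurod2 (chr11:98329596-98329895, minus strand): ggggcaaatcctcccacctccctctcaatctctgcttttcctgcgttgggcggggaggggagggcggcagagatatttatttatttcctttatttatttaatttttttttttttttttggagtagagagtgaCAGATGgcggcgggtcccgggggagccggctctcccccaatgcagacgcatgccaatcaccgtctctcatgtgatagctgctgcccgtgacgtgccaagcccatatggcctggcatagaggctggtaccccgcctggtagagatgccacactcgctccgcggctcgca
Slc17a6 (chr7:51621580-51621879, plus strand): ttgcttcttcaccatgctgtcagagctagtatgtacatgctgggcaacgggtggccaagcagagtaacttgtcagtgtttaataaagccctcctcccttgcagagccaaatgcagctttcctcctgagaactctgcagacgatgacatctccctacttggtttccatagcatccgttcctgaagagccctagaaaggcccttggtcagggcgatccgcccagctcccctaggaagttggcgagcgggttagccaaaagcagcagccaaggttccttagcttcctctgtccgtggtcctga
Slc17a6 (chr7:51624387-51624686, plus strand): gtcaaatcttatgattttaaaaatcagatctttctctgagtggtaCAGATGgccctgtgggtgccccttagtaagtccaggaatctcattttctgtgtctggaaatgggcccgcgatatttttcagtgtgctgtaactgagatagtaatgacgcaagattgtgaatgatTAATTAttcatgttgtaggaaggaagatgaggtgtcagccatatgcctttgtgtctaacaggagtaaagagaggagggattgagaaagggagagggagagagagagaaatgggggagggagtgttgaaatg
TAATTA was in 8.93% of the windows of genes higher in IN and 5.34% of those of lower genes, against 2.47% of the 9124 windows of all tested genes and 5.29% of all 32851 windows. CAGATG was in 13.4% and 19.1%, against 10.6% and 17.2%. The wider CANNTG, which includes CAGATG, was in 61.6% and 70.99%, against 61.4% and 72.3%. Windows of 1 gene can overlap, and a match is a run of letters, not evidence of binding.

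Interneuron transcription factors were higher in IN for 13 of 16 tested members and lower for none, with a median log2 of 3.61. Dlx1 (chr2:71528113-71533981), a homeodomain factor of the ventral forebrain, stood at 298, 319, 499 and 647 CPM in IN, against 47.5, 21.7, 31.8 and 54.1 CPM in N4d (3.57 ± 0.27, adjusted p 1.41e-04). Its levels in IN were highest in E14 and E15, and the classes did not overlap. Lhx6 (chr2:36081953-36105408) stood at 497, 467, 476 and 237 CPM in IN, against 96.6, 29.1, 31.4 and 14.3 CPM in N4d (3.64 ± 0.33, adjusted p 2.88e-04). Here E15 was lowest in both classes and E12 highest in both, yet each IN value exceeded each N4d value. Prox1 stood at 145.8, 177.6, 212.1 and 157.4 CPM in IN, against 11.5, 7.46, 4.52 and 5.72 CPM in N4d (4.68 ± 0.40), with no overlap. Maf, a bZIP factor known from medial eminence interneurons, stood at 387, 405, 405 and 263 CPM in IN, against 51.2, 25.8, 28.9 and 5.57 CPM in N4d (4.08 ± 0.41). Npas1 stood at 179.5, 109.6, 77.1 and 10.2 CPM in IN, against 16.4, 6.77, 0.347 and 0.470 CPM in N4d (4.77 ± 0.76). It declined in IN to a level in E15 below that of N4d in E12, so its classes overlapped, and the call was lost without E12 (adjusted p 0.0631).

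Also called were Dlx2 (4.35 ± 0.55), Dlx5 (4.19 ± 0.91), Dlx6os1 (3.93 ± 0.24), Nr2f2 (3.54 ± 0.63), Sp9 (3.48 ± 0.59) and Sp8 (3.39 ± 0.72). Sox6 (2.40 ± 0.54, adjusted p 0.0577), Dlx6 (3.51 ± 1.04) and Satb1 (0.68 ± 0.24) did not pass. Dlx6os1 and Dlx6 overlap on opposite strands, as do Dlx1 and Dlx1as and Prox1 and Prox1os, and nothing states that the counting used strand, so reads of such partners may be mixed. Between 7 and 11 of the 16 passed without 1 day, and 12 passed without the cells holding markers of both classes. Dlx5 and Sp8 lost their call without any of the 4 days, and Sp9 and Nr2f2 each without any of 3 days. 

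**Figure D3:**
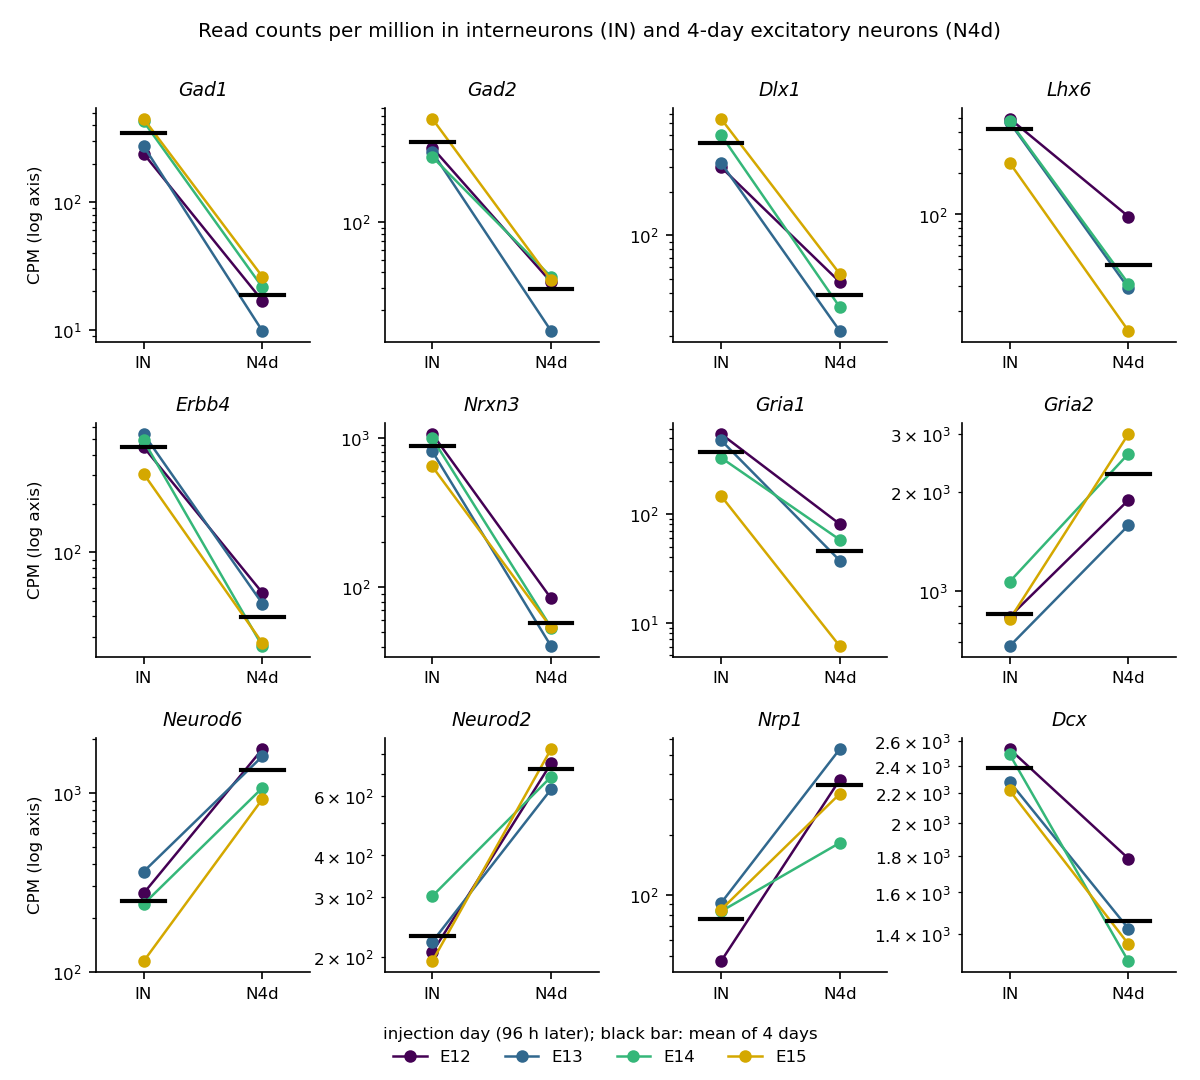
CPM (log axes) of 12 genes in the IN sum on the left and the N4d sum on the right of each panel, joined by a line for each injection day, with black bars at the means of 4 days. All 4 lines run in the same direction in each panel, downward from IN for Gad1, Nrxn3 and Dcx and upward for Gria2, Neurod6, Neurod2 and Nrp1.

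Of 20 genes that mark interneuron subtypes, 10 were tested, and 5 of them were higher in IN. Calb1, the calcium buffer calbindin, stood at 43.7, 70.995, 72.1 and 43.4 CPM in IN, against 0.160, 0.650, 0.268 and 0.173 CPM in N4d (7.73 ± 0.71, adjusted p 3.19e-04), with 85 reads over all N4d sums. Pnoc, the precursor of the peptide nociceptin, stood at 22.9, 99.3, 117.8 and 49.8 CPM in IN, against 0.0178, 0.0875, 1.91 and 0.0990 CPM in N4d (8.67 ± 0.94), and most of its few N4d reads were in E14. Htr3a, an ion channel gated by serotonin and known from caudal eminence interneurons, stood at 33.1, 38.6, 38.7 and 48.9 CPM in IN, against 0.0357, 3.32, 0.0788 and 0.173 CPM in N4d (7.83 ± 1.37), and its call was lost without E12, E14 or E15. All 3 genes were near 0 in N4d, so they passed the filter on low values through their IN sums alone. The share of this list that was called and its median are shaped by that filter. Nxph1, a secreted ligand of neurexins, stood at 227, 160.8, 149.2 and 86.7 CPM in IN, against 19.6, 13.5, 6.67 and 0.668 CPM in N4d (4.55 ± 0.61), and it was highest in E12 and lowest in E15 in both classes. Reln, the secreted protein reelin that Cajal-Retzius cells and some interneurons make, stood at 293, 122.6, 17.3 and 5.53 CPM in IN, against 20.6, 4.21, 4.87 and 0.544 CPM in N4d (3.53 ± 0.54). Its level in IN was lower on each later day, with 5.53 CPM in E15, which is within the N4d range, and without E12 it missed the filter. Of 8 Cajal-Retzius markers Reln alone was tested, and the others missed the filter or have no row of counts under their names.

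Somatostatin and neuropeptide Y did not pass. Sst stood at 33.6, 47.1, 82.5 and 0 CPM in IN, against 8.18, 1.36, 0.284 and 1.34 CPM in N4d (3.47 ± 2.07, adjusted p 0.574). It was absent from the reads of IN at E15, where 3 reads, taken as the limit that a count of 0 allows, would be 0.319 CPM. Npy stood at 210.6, 62.8, 216 and 73.2 CPM in IN, against 218, 28.3, 105.5 and 1.41 CPM in N4d (1.65 ± 0.78), with overlapping classes. Nxph2 (4.59 ± 1.04, adjusted p 0.0577) and Cck (0.36 ± 0.70) did not pass either. Of the 10 members not tested, Calb2, Crh, Ndnf, Cort, Penk and Cxcl14 missed the filter, and Vip, Pvalb, Tac1 and Lamp5 have no row of counts under these names.

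The clusters IN.1 and IN.2 differed in which of these genes they carried. These values describe clusters of the same cells and were not tested against each other. Lhx6 averaged 792 ± 102.8 CPM in IN.1 and 19.5 ± 23.2 CPM in IN.2 (SD, n = 4 days). Nxph1 averaged 282 ± 16.97 and 11.4 ± 11.4 CPM, and Gria1, a subunit of AMPA receptors, 647 ± 132.3 and 41.6 ± 42.9 CPM. In the other direction, Prox1 averaged 12.1 ± 18.00 CPM in IN.1 and 383 ± 111.5 CPM in IN.2, Adarb2 7.76 ± 7.33 and 326 ± 144.97 CPM, Htr3a 3.15 ± 5.99 and 87.2 ± 24.9 CPM and Pnoc 4.38 ± 8.48 and 153.8 ± 87.6 CPM. Gad2 averaged 446 ± 183.6 CPM in IN.1 and 447 ± 159.3 CPM in IN.2, and Nrxn3 927 ± 359 and 839 ± 284 CPM, closer together than their SDs. Against N4d, IN.1 cells alone gave 54 genes higher and 39 lower, and IN.2 cells alone 58 higher and 36 lower. Lhx6 then differed from N4d by 4.73 with IN.1 alone (adjusted p 0.00119) and by -2.47 with IN.2 alone (adjusted p 0.587). Adarb2 differed by -0.50 with IN.1 alone (adjusted p 0.960) and by 5.33 with IN.2 alone (adjusted p 7.28e-05). Both comparisons share the N4d sums.

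**Figure D4:**
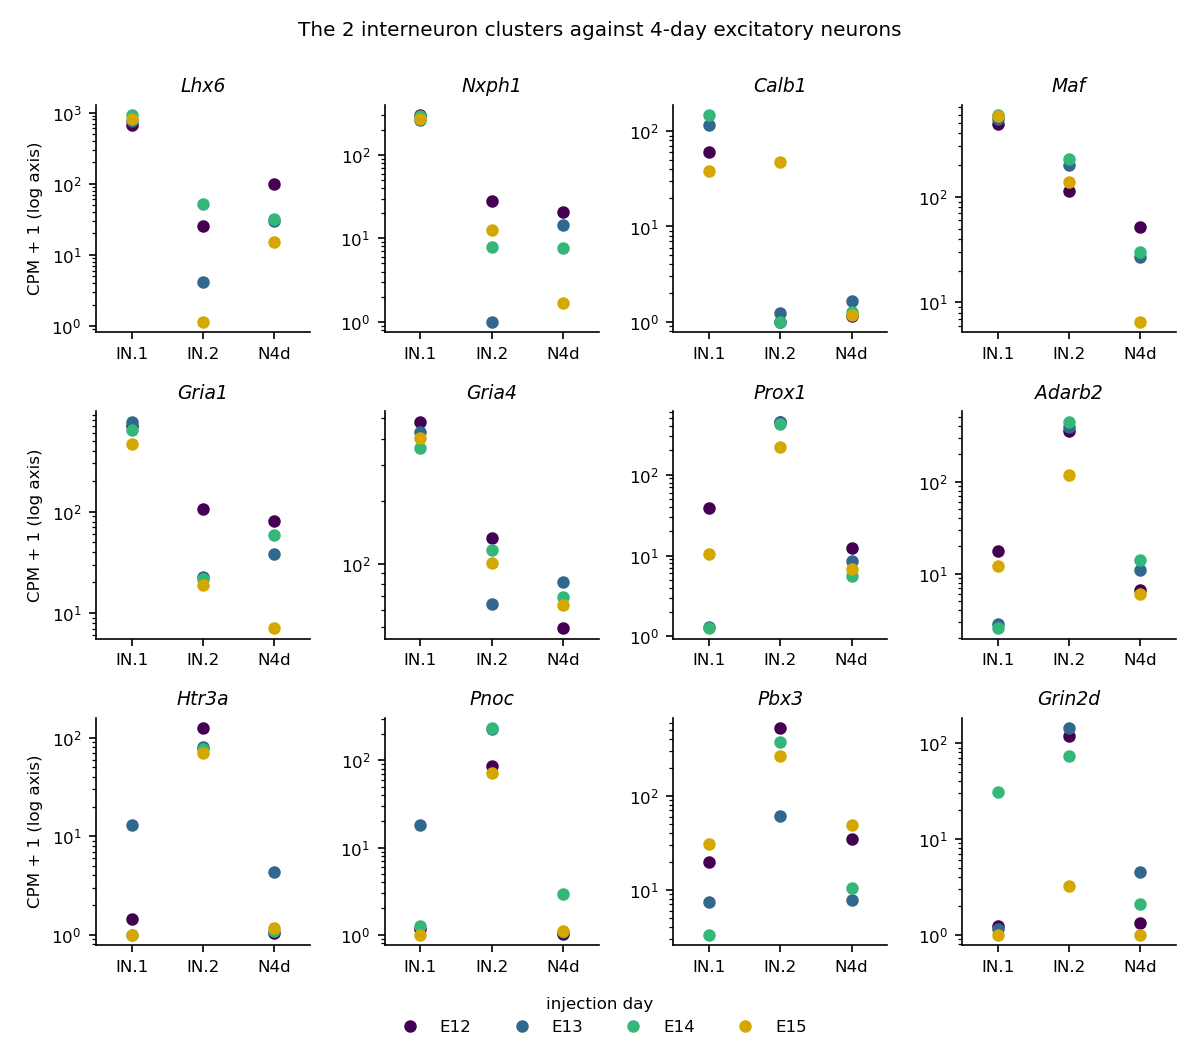
CPM + 1 (log axes) of 12 genes in IN.1, IN.2 and N4d, with 1 point per injection day. Lhx6 lies at 792 CPM on average in IN.1 and 19.5 CPM in IN.2, while Prox1, Htr3a and Pnoc lie higher in IN.2 than in IN.1.

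The share of IN.2 among IN cells was lowest in E12 and highest in E15, and the intervals of these days do not overlap. IN.2 cells were 24 of 85, 15 of 44, 14 of 30 and 24 of 35 IN cells from E12 to E15, that is 28.2% (95% Clopper-Pearson interval 19.0 to 39.04), 34.1% (20.5 to 49.9), 46.7% (28.3 to 65.7) and 68.6% (50.7 to 83.1). IN cells were 37.1% (30.8 to 43.7), 17.5% (13.0 to 22.7), 12.4% (8.56 to 17.3) and 21.2% (15.2 to 28.2) of IN and N4d cells together. These intervals cover counting error only. Among N4d cells, the cluster N4d.late1 held 4 cells in E12, 1 in E13, 6 in E15 and the majority of the class in E14, and N4d.early1 held 21, 9, 0 and 0. E12 and E13 share a run code and E14 and E15 share another, so day and run cannot be told apart in any trend over days, while each IN sum and its N4d sum come from the same run.

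Excitatory transcription factors were lower in IN for 11 of 24 tested members and higher for 1, with a median log2 of -1.52. Neurod6 (chr6:55677822-55681263) stood at 274, 363, 239 and 114.3 CPM in IN, against 1759, 1602, 1067 and 923 CPM in N4d (-2.46 ± 0.18, adjusted p 1.39e-04). E15 was lowest in both classes, and the classes did not overlap. Neurod2 stood at 205.6, 221, 302 and 193.5 CPM in IN, against 752, 629.6, 686 and 829 CPM in N4d (-1.62 ± 0.19). Zbtb18, a zinc finger repressor needed for cortical neuron differentiation, stood at 492, 506, 822 and 312 CPM in IN, against 1829.8, 1944, 2269 and 2717 CPM in N4d (-2.06 ± 0.23). Id2 (-2.28 ± 0.19), Tbr1 (-2.38 ± 0.28), Lhx2 (-2.38 ± 0.39), Bhlhe22 (-2.05 ± 0.30), Pou3f2 (-1.42 ± 0.16), Pou3f3 (-1.21 ± 0.16) and Bcl11a (-0.97 ± 0.18) were lower too. The call of Lhx2 was lost without E12 or E14, and that of Bcl11a without E12, E13 or E15. Without the cells holding markers of both classes, 11 were again lower and the median was -1.95, with Neurod6 at -3.84 and Neurod2 at -2.86, both of which helped choose those cells.

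The member of this list that was higher in IN is Bcl11b (also called Ctip2), known from deep-layer projection neurons and from interneurons. It stood at 421, 452, 366 and 269 CPM in IN, against 219, 62.9, 32.9 and 48.9 CPM in N4d (2.49 ± 0.38, adjusted p 0.00680). N4d was far higher in E12 than on the other days, and the classes did not overlap. Its call was lost without E13 (adjusted p 0.0525). Fezf2 (-2.54 ± 1.36, adjusted p 0.524), Cux1 (-0.63 ± 0.16, adjusted p 0.0983), Cux2 (1.07 ± 0.27, adjusted p 0.0963) and Sox5 (-0.25 ± 0.55) did not pass. Slc17a6 (chr7:51622006-51671119), the vesicular glutamate transporter VGLUT2 whose 2 promoter windows are shown above, stood at 13.9, 4.81, 11.2 and 33.5 CPM in IN, against 58.6, 75.5, 77.2 and 133.8 CPM in N4d (-2.64 ± 0.48). It was lower in IN on every day with no overlap, and the call was lost without E12, E13 or E14. Slc17a7, the VGLUT1 transporter, missed the filter, with 0.169, 0, 0 and 0.106 CPM in IN and 1.68, 3.97, 0.631 and 0.668 CPM in N4d.

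The AMPA receptor subunits moved in opposite directions over IN as a whole, and Gria1 was high in the cluster IN.1 only. Of 11 tested glutamate receptor genes 3 were higher in IN and 1 lower, against 1.20% and 1.05% of all tested genes. Their median log2 was 1.07. Grin2d, among the higher genes, passed the filter on low values through its IN sums alone. The share of this list that was called and its median are thus shaped by that filter. Gria1 (chr11:57011387-57330244) stood at 546, 478, 329.9 and 146.98 CPM in IN, against 80.7, 37.2, 57.9 and 6.06 CPM in N4d (3.41 ± 0.35, adjusted p 6.76e-04). Its level declined from E12 to E15 in IN, and no IN value lay within the N4d range. Gria4 stood at 389, 287, 237 and 187.1 CPM in IN, against 48.1, 80.8, 68.5 and 62.2 CPM in N4d (2.09 ± 0.27, adjusted p 0.00231). Gria2 (chr3:80681450-80802835), the subunit known to make AMPA receptors impermeable to calcium, stood at 837, 681, 1069 and 821 CPM in IN, against 1891, 1585, 2614 and 3003 CPM in N4d (-1.35 ± 0.13, adjusted p 5.84e-04). All 4 IN sums of Gria2 were below all 4 N4d sums. Gria3 did not pass (-2.03 ± 0.98). By cluster, Gria2 averaged 849.8 ± 188.9 CPM in IN.1 and 901 ± 158.8 CPM in IN.2, while Gria4 averaged 419 ± 50.5 and 102.7 ± 29.7 CPM. The mean of Gria1 in IN.2, given above with the clusters, lay within its N4d range. The lowest log2 difference under any alternative was 0.006 for Gria1 and 0.74 for Gria4.

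Among NMDA receptor subunits, Grin2d, the subunit of slow channels known from interneurons, stood at 31.3, 55.8, 50.9 and 1.60 CPM in IN, against 0.339, 3.47, 1.10 and 0 CPM in N4d (5.73 ± 1.02). IN at E15 was within the N4d range, N4d at E15 had no read (limit 0.0742 CPM), and without E12, E13 or E14 the gene missed the filter. Grin2b (0.02 ± 0.20) and Grin1 (-0.82 ± 0.88) did not pass, nor did the kainate receptor subunits Grik3 (3.46 ± 1.16, adjusted p 0.218) and Grik2 (1.07 ± 0.41). Of 11 tested GABA receptor subunits and chloride transporters none passed in edgeR, 3 had an unadjusted p under 0.05, and their median log2 was -0.40. DESeq2 called 1 of them higher and 2 lower. Gabra2 had 13.4, 4.06, 61.6 and 37.3 CPM in IN, against 88.9, 206.8, 123.3 and 171.7 CPM in N4d (-2.71 ± 0.67, adjusted p 0.0865), with every IN value below every N4d value. The chloride transporters Slc12a2 (-0.03 ± 0.50) and Slc12a5 (0.89 ± 1.02), known to set the sign of the GABA response, did not pass.

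Genes of tangential migration did not move as a group, with 2 of 16 tested members higher in IN, 3 lower and a median log2 of 0.04. The shares over all tested genes were 1.20% higher and 1.05% lower. Erbb4 (chr1:68032186-69108059), the neuregulin receptor of migrating interneurons, stood at 449, 541, 492 and 307 CPM in IN, against 56.1, 48.1, 26.2 and 27.4 CPM in N4d (3.59 ± 0.25, adjusted p 1.39e-04). Rnd3, a small GTPase that acts on the actin cytoskeleton, stood at 69.3, 68.2, 54.4 and 454 CPM in IN, against 22.1, 16.01, 18.6 and 45.1 CPM in N4d (2.18 ± 0.36). IN at E15 was far above the other days, the groups did not overlap, and the call was lost without E15 (adjusted p 0.136). Lower in IN were receptors for guidance cues. Nrp1, a receptor for class 3 semaphorins, stood at 46.8, 91.2, 83.02 and 84.6 CPM in IN, against 375, 533, 182.02 and 319 CPM in N4d (-2.11 ± 0.31), and Robo2, a receptor for Slit proteins, at 156.2, 175.1, 190.3 and 192.5 CPM in IN, against 556, 449.9, 614 and 468 CPM in N4d (-1.50 ± 0.17). Their classes did not overlap. Plxna4, a plexin that pairs with neuropilins, differed by -1.11 ± 0.16, and its call was lost without E12. The chemokine receptors Ackr3 (3.97 ± 1.06, adjusted p 0.104) and Cxcr4 (2.94 ± 1.60, adjusted p 0.527) did not pass. Ackr3 had 197.8, 74.5, 23.1 and 119.2 CPM in IN and 14.6, 5.46, 11.8 and 0.297 CPM in N4d, and its classes did not overlap. Of 7 tested ventral patterning genes, Tshz1 (2.93 ± 0.34) and Pbx3 (2.64 ± 0.46, lost without E12) were higher in IN, and Pbx3 averaged 14.2 ± 12.3 CPM in IN.1 and 307 ± 195.2 CPM in IN.2.

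Of 15 tested radial migration genes, 2 were higher in IN and 1 lower, against 1.20% and 1.05% of all tested genes. Dcx (chrX:143855842-143933311), the microtubule protein doublecortin of migrating neurons, stood at 2533, 2281, 2490.3 and 2218 CPM in IN, against 1784, 1425, 1283 and 1356 CPM in N4d (0.75 ± 0.12, adjusted p 0.00722). It was abundant in both classes, and each IN sum was above each N4d sum. Dab1, the adaptor that carries the reelin signal into the cell, stood at 170.96, 212.1, 151.5 and 58.4 CPM in IN, against 706, 650.1, 601 and 628 CPM in N4d (-2.21 ± 0.27). The reelin receptors Lrp8 (-0.17 ± 0.21) and Vldlr (0.27 ± 0.25) did not pass. Neto1, better known as an auxiliary subunit of kainate receptors, differed by 3.38 ± 0.48, and its call was lost without E12.

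Of 21 tested genes of axon guidance and axonal adhesion, 1 was higher in IN and 3 were lower, against 1.20% and 1.05% of all tested genes. Their median log2 was -1.23. Gap43, a growth cone protein, stood at 118.4, 118.1, 147.8 and 215 CPM in IN, against 445, 392, 447 and 399.7 CPM in N4d (-1.49 ± 0.22), with no overlap, and the call was lost without E12. Chl1, a cell adhesion molecule related to L1, stood at 1471, 1065, 954 and 741 CPM in IN, against 436, 468, 445 and 597 CPM in N4d (1.13 ± 0.20). It declined from E12 to E15 in IN, and its call was lost without E12, E13 or E14. Cntn2 (-2.25 ± 0.43, lost without E12 or E14), an adhesion molecule of axons, and Sema3c (-1.97 ± 0.39, lost without any 1 of the days), a secreted semaphorin, were lower.

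Of 27 tested synaptic genes 1 was higher in IN and 2 lower, against 1.20% and 1.05% of all tested genes. Nrxn3 (chr12:88722876-90334935), a neurexin and thus a presynaptic partner of neuroligins, stood at 1066, 815, 997 and 646 CPM in IN, against 84.3, 40.3, 53.8 and 53.8 CPM in N4d (3.99 ± 0.20), and its adjusted p of 2.11e-05 was the smallest of all tested genes. The IN levels were far from the N4d levels on all days. Syt4, a synaptotagmin of secretory vesicles, stood at 165.5, 87.7, 162.4 and 96.5 CPM in IN, against 512, 427, 713 and 458 CPM in N4d (-2.03 ± 0.18). Gphn, the scaffold gephyrin of inhibitory synapses, did not pass (1.08 ± 0.33, adjusted p 0.167), although its IN values were all above its N4d values. The neuroligins Nlgn1 (-1.35 ± 0.72) and Nlgn3 (-0.19 ± 0.39) did not pass.

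Of 23 tested voltage-gated channel genes 1 was lower in IN, Cacna2d1 (-2.17 ± 0.28), an auxiliary calcium channel subunit. For this and the next lists, the share lower over all tested genes was 1.05%. The potassium channel genes Kcnc2 (2.63 ± 0.60, adjusted p 0.0577) and Kcnc1 (1.70 ± 0.43, adjusted p 0.0926), known from fast-spiking interneurons, did not pass. Of 13 tested calcium and calmodulin kinase genes 1 was lower as well, Camk2b, which stood at 116.7, 94.97, 140.4 and 91.4 CPM in IN, against 305, 271, 542 and 349 CPM in N4d (-1.65 ± 0.19) with no overlap. Of 15 tested cadherins 1 was lower, Cdh12 (-2.91 ± 0.59, lost without E12, E14 or E15). None of 4 tested neuropeptide and monoamine receptors passed in edgeR or DESeq2, nor at an unadjusted p under 0.05. Cnr1, the cannabinoid receptor, differed by -0.15 ± 0.22, with 116.8 ± 53.3 CPM in IN.1 and 599 ± 217 CPM in IN.2.

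Genes outside the lists were among the largest changes of genes with at least 50 CPM in the higher class. Neb (chr2:52136647-52378474), which encodes nebulin, a thin filament protein best known from muscle, stood at 380.4, 599, 557 and 457 CPM in IN, against 27.9, 21.3, 21.3 and 50.1 CPM in N4d (4.16 ± 0.31, adjusted p 1.41e-04). No sum of N4d came near an IN sum. Adarb2, a member of the family of RNA editing enzymes that is not known to edit, stood at 104.5, 154.9, 226 and 85.7 CPM in IN, against 5.62, 9.85, 13.1 and 4.95 CPM in N4d (4.14 ± 0.33). Also higher were St18 (5.23 ± 0.80, lost without E14), a zinc finger factor, Wls (5.17 ± 0.74), which carries Wnt proteins to the cell surface, Kcnip1 (4.30 ± 0.56), which binds Kv4 channels, and Rph3a (4.03 ± 0.49), a Rab effector at synaptic vesicles. Without the cells holding markers of both classes the difference of St18 was 3.60 (adjusted p 0.398) and that of Calb1 6.84 (adjusted p 0.118). Abat, Htr3a, Rnd3, Pbx3, Grin2d, Slc17a6, Sema3c, Slc29a1, Sybu, Mmd2, Ndrg1 and Sik2 also lost their call there, with the same sign.

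Itpr1 (chr6:108213096-108551109), the channel that releases calcium from internal stores, stood at 24.4, 36.8, 28.9 and 22.1 CPM in IN, against 232, 272, 244 and 159.5 CPM in N4d (-2.97 ± 0.25, adjusted p 1.79e-04). Ptprk, a receptor-type tyrosine phosphatase, stood at 15.9, 21.1, 80.1 and 37.9 CPM in IN, against 119.9, 158.9, 387 and 337 CPM in N4d (-2.77 ± 0.26), and Dok5, an adaptor of receptor kinases, at 68.99, 58.6, 78.3 and 38.6 CPM in IN, against 339.9, 410.2, 431 and 269 CPM in N4d (-2.55 ± 0.20). The classes of these 3 genes did not overlap. Hs6st2 (-2.76 ± 0.30), which sulfates heparan sulfate, and Clstn2 (-2.54 ± 0.27), a synaptic calsyntenin, were lower in IN too, with calls kept without any 1 day. Slc29a1 (-3.63 ± 0.77), a nucleoside transporter, Sybu (-2.97 ± 0.57), Mmd2 (-2.86 ± 0.62), Aff2 (-2.76 ± 0.52), Ndrg1 (-2.71 ± 0.58), Nckap5 (-2.65 ± 0.43), Eml1 (-2.52 ± 0.43) and Sik2 (-2.47 ± 0.54) were lower but lost their call without at least 1 of the days.

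Of 16 tested pan-neuronal genes 2 were higher in IN, the RNA-binding proteins Celf4 (1.53 ± 0.16) and Elavl4 (1.14 ± 0.20), and 3 were lower, among them Rbfox1 (-1.19 ± 0.23), a splicing factor, and Uchl1 (-1.08 ± 0.21). Over all tested genes 1.20% were higher and 1.05% lower. The list median was -0.17, near that of all genes. Celf4 averaged 604 ± 27.96 CPM in IN and 217 ± 32.5 CPM in N4d (SD, n = 4 days). Its call was kept without any 1 day, and those of Elavl4, Rbfox1 and Uchl1 were not. None of 9 S phase and 4 G2 and M phase genes tested passed in edgeR or DESeq2, and 1 S phase gene had an unadjusted p under 0.05. Another 11 of the 15 listed G2 and M phase genes missed the filter on low values. All 15 summed to 62.3, 61.4, 44.4 and 614 CPM in IN, against 108.3, 74.6, 79.1 and 179.6 CPM in N4d. E15 was highest in both classes and far above the other days in IN. Of 9 apical progenitor markers Sox2 was higher in IN, at 66.96, 114.99, 120.2 and 102.95 CPM in IN, against 23.9, 4.06, 15.5 and 26.8 CPM in N4d (2.80 ± 0.58), but it lost its call without any of the 4 days. Sox2 is known from neural stem cells and also from some interneurons, and the other 8 did not pass, among them Pax6 (1.48 ± 0.58) and Sox9 (0.98 ± 0.48).

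Markers of other cells and signs of handling were measured alongside. Of 7 tested astrocyte markers Id3, a target of BMP signalling, was higher in IN, at 43.4, 133.6, 99.4 and 24.2 CPM in IN, against 5.71, 5.56, 1.95 and 6.81 CPM in N4d (3.79 ± 0.73). All its N4d values were under the filter of 10 CPM, so it was tested through its IN sums alone, and that filter shapes this count. Id3 averaged 140.03 ± 82.7 CPM in IN.1 and 2.83 ± 5.50 CPM in IN.2, and the call was lost without E12, E13 or E14. The 12 astrocyte markers summed to between 143.7 and 533 CPM in IN and between 113.7 and 709 CPM in N4d, and Slc1a3 (-0.36 ± 0.45) and Aldoc (-0.37 ± 0.63) did not pass. Markers of oligodendrocyte precursors, microglia and vessels each summed to under 10 CPM in every sum. Only 2 of 6, 3 of 9 and 3 of 8 of them have a row of counts, so these cells were checked in part only. None of the listed red blood cell genes has a row of counts under its name, so these cells were not checked. Of 8 tested immediate early genes, which dissociation of tissue can induce, 2 were higher in IN. Egr1 stood at 186.7, 343, 332 and 540.1 CPM in IN, against 64.6, 71.7, 31.2 and 56.01 CPM in N4d (2.66 ± 0.34, adjusted p 0.00222), and Fos at 175.2, 307, 203.6 and 187.5 CPM in IN, against 78.9, 57.2, 45.4 and 56.3 CPM in N4d (1.91 ± 0.27, adjusted p 0.00456). The classes did not overlap for either gene, and the whole list summed to between 651 and 1165 CPM in IN and between 203.95 and 421 CPM in N4d. Whether handling had a part in any difference was not tested.

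**Figure D5:**
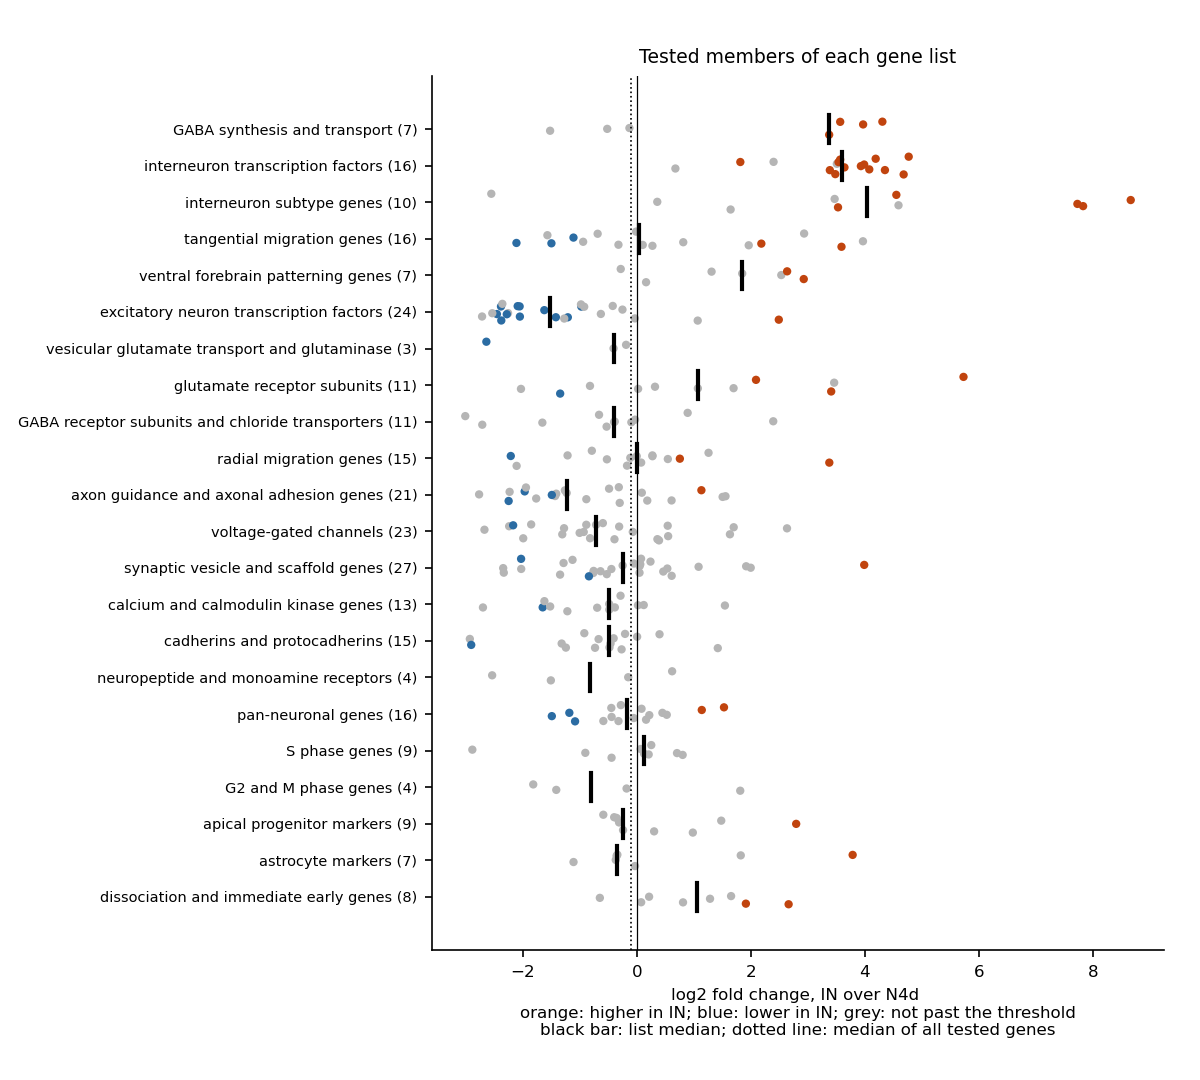
Log2 fold change of IN over N4d for the tested members of each gene list, with the number tested in brackets, the list median as a black bar and the median of all tested genes (-0.10) as a dotted line. Interneuron lists lie to the right, with medians of 3.37 to 4.04 over the members that passed the filter, and excitatory factors lie to the left at -1.52. Medians of the other lists run from -1.23 (axon guidance and axonal adhesion) to 1.85 (ventral patterning).

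Whether the difference between the classes changed with injection day was asked with a straight line over the 4 days. No gene of 9362 passed in edgeR (0% called), with 367 at an unadjusted p under 0.05. DESeq2 called 22 genes in the same design. The fit has 2 residual degrees of freedom. In counts simulated in the way given above, it recovered 47% of 100 slopes of 2 log2 units per day and 12% of 100 slopes of 1. Moderate slopes would thus mostly be missed. Reln had a slope of -0.42 ± 0.44 and Nxph1 of 1.15 ± 0.34 log2 units per day in the difference, Lhx6 of 0.54 ± 0.21 and Maf of 0.81 ± 0.21, and Gria4 of -0.40 ± 0.21 (adjusted p 1.00 for each). These 5 genes were chosen after their values were seen. Lhx6, Nxph1 and Maf were lower in E15 than in E12 in both classes, by the larger ratio in N4d. The days also differ in the share of IN.2 cells, whose part in these values was not tested.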

How the data were processed

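The authors deposited 1 table of read counts per gene and cell (16441 genes, 2756 cells), with cluster names in the labels. TopHat2 2.0.13, UMI-tools and GRCm38 stand in the submitters' processing notes with no role or order, and the settings, strand use and way of clustering are not given in the sources used here. Counts were summed over IN cells (194 in all) and N4d cells per injection day at 96 h. Genes with at least 10 CPM in at least 3 of the 8 sums were kept. edgeR 4.0.16 (R 4.3.3) fitted a quasi-likelihood model with TMM scaling and injection day as a block, and p-values were adjusted over all genes tested. A class by day slope was tested in a further fit. The days pair the sums because the labels give each pair the same injection day and run code. Deviations of same-day sums correlated at 0.12, 0.07, 0.12 and 0.14 from E12 to E15, against -0.11 to 0.02 for other days.

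Of the tested genes, 112 were called higher and 98 lower. The genes named by rule are the 15 largest called changes in each direction among genes of at least 50 CPM in the higher class and of 1 sign on all days (predicted, ribosomal protein and mitochondrial genes passed over), with the members of each gene list, all where up to 8 were tested and otherwise the 6 of smallest p. All others were chosen after their values were seen. The members, lists and tests were chosen with earlier results of these data known. The fit was tested on simulated counts. Alternatives were DESeq2 1.42.0, limma 3.58.1 with cells at equal weight, other scaling and filters, each day left out, each IN cluster alone, shared N4d clusters, equal cell numbers, each run alone, and no block. Chosen after seeing the data were the fits without cells holding markers of both classes and with IN.1 and IN.2 at equal weight. Detected genes and marker shares were computed with Python 3.11.15. Gene positions come from GENCODE vM21 and promoter windows from RefSeq (GRCm38.p6). Sets of cells from 24 h or less, and other clusters of 96 h apart from the astrocyte check, were not analysed here, and the values of some listed genes are not reported here.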

Additional observations from a re-analysis of the deposited data

Results flagged for a closer look

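In 8 of 84 groups of 4 days that were checked, 1 day stood apart from the other 3 by more than 0.829 of the group's range, Dixon's 95% limit; chance gives about 1 in 20. In IN, E15 stood apart for 3 genes and 1 sum over a list. Lhx6 had 237 CPM in IN at E15, against 467 to 497 CPM on the other days, and Maf had 263 CPM, against 387 to 405 CPM. Rnd3 had 454 CPM in IN at E15, against 54.4 to 69.3 CPM on the other days, and it lost its call without that day. The 15 G2 and M phase genes summed to 614 CPM in IN at E15, against 44.4 to 62.3 CPM on the other days.

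In N4d, single days stood apart for 4 genes. Gad2 had 13.5 CPM in N4d at E13, where the other days had 33.2 to 36.5 CPM. Htr3a had 3.32 CPM in N4d at E13, where the others had 0.0357 to 0.173 CPM, and Pnoc had 1.91 CPM in N4d at E14, where the others had 0.0178 to 0.0990 CPM. Bcl11b had 219 CPM in N4d at E12, where the others had 32.9 to 62.9 CPM.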

How the results depend on the processing

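In edgeR with TMM scaling, 1.20% of tested genes were higher and 1.05% lower. DESeq2 gave 3.76% higher (352 genes) and 4.95% lower (463 genes), and all 210 calls were among its calls. IN.1 cells alone gave 0.590% higher and 0.426% lower, IN.2 cells alone 0.629% and 0.391%, as many N4d as IN cells 0.778% and 0.693%, the run of E12 and E13 alone 0.363% and 0.342%, and the run of E14 and E15 alone 0.513% and 0.406%. With limma and cells at equal weight 1.95% were lower, and the share of higher genes among the calls was 41.2% rather than 53.3%. With IN.1 and IN.2 at equal weight 2.22% were lower. Leaving out 1 day gave 0.631 to 0.961% higher and 0.484 to 0.938% lower. Without the block that pairs the sums by day, 1.09% were higher and 0.833% (78 genes) lower. Without the filter on low counts 81 genes were higher and 66 lower, and with at least 50 CPM in 4 sums 2.33% were higher and 3.46% lower. For the change with day, DESeq2 called 9 rising and 13 falling differences, limma with equal weight 1 rising and 1 falling, and no other setting any. The difference in detected genes per cell was -605.6 unthinned.

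Of 3354 values of named genes under alternatives, 4 reversed: Lhx6 with IN.2 cells alone (-2.47) and, with IN.1 cells alone, Adarb2 (-0.50), Pbx3 (-0.76) and Nr2f2 (-0.23). Each of the 4 genes is low in the cluster used there. Of the 97 named genes that were called, 56 kept their call without any 1 day, 80 without the cells holding markers of both classes and 23 under all alternatives. With 3 residual degrees of freedom and as few as 30 cells in a sum, small differences and genes of low level would be missed.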

Other observations

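A few gene groups were looked at after their values were seen and carry no test of their own. Of 20 enzymes of cholesterol synthesis, all tested, 3 were lower in IN and none higher, against 1.05% and 1.20% of all genes, and 16 had a negative log2 difference, with a median of -0.90 (-0.73 without the cells holding markers of both classes). Fdft1, which makes squalene, stood at 92.5, 87.4, 74.8 and 45.1 CPM in IN, against 340.4, 478, 303 and 275 CPM in N4d (-2.20 ± 0.21), with no overlap. It overlaps Ctsb in the annotation. Sqle, the next enzyme of the pathway, differed by -1.42 ± 0.25 and Hmgcs1, an early enzyme, by -1.22 ± 0.19. Their calls were lost without E12 and, for Sqle, also without E13 or E15. Ldha, which turns pyruvate into lactate, stood at 51.3, 40.1, 55.2 and 16.5 CPM in IN, against 218, 268, 219 and 155.3 CPM in N4d (-2.47 ± 0.29), while the other 16 tested genes of glycolysis and glucose uptake did not pass and the median of the list was -0.23.

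Several abundant RNAs were higher in IN. The imprinted noncoding RNA Meg3 stood at 1369, 1080.1, 921 and 1188 CPM in IN, against 453, 281, 365 and 395 CPM in N4d (1.66 ± 0.14), and Nnat, an imprinted membrane protein gene that lies within Blcap, at 1819, 1879.6, 1516 and 1765 CPM in IN, against 675, 506, 509 and 639 CPM in N4d (1.63 ± 0.13). Malat1, a nuclear noncoding RNA, differed by 0.66 ± 0.07. Zfp536 (3.95 ± 0.47), a zinc finger factor, and Sox1 (2.86 ± 0.32), known from neural progenitors and from the ventral forebrain, were higher too.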
